A study of Mus musculus with 64 samples.

Results

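TCF7L1 binding was compared between naive mouse embryonic stem cells (naive ESCs) and caudal epiblast-like cells (CEpiLCs) of the wild-type (WT) line. The members were the libraries immunoprecipitated with an antibody that the labels name TCF3, the older name of TCF7L1, in these 2 states. They are 6 of the 60 libraries with a peak list and of 64 samples in all, 3 from naive ESCs and 3 from CEpiLCs, which the series describes as independent biological replicates. The assay was ChIP-seq, in which the DNA bound by a protein is recovered with an antibody and sequenced. The same states had also been mapped with antibodies to β-catenin, SOX2, TCF7L2 and LEF1, and TCF7L1 had also been mapped in a line in which SOX2 is set by doxycycline.

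Both states came from the HM1 TetON line (strain 129), which served as the WT control. Naive ESCs had been kept in 2i medium, which contains 3 µM of the GSK3 inhibitor CHIR99021 and 500 nM of the MEK inhibitor PD0325901. CEpiLCs had been differentiated for 72 h with 10 ng/ml bFGF and 5 µM LGK974, which blocks WNT secretion, with CHIR99021 added after the first 2 days. CHIR99021, which activates the WNT pathway, was therefore present in both states, and MEK inhibition, bFGF and LGK974 differed between them. The sources used here give different CHIR99021 doses for the CEpiLCs, so its dose cannot be taken as matched. The labels give 72 h and no treatment for the naive ESCs too. SOX2-ON and SOX2-OFF cells were Sox2-/- cells with a doxycycline-driven Sox2 transgene, differentiated like CEpiLCs with doxycycline maintained at 1 µg/ml or withdrawn. Peak lists carry no expression values, so the identity of the cells could not be checked against marker transcripts.

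TCF7L1 is a DNA-binding protein of the TCF/LEF family, the factors through which WNT signals reach the genome. With co-repressors it keeps target genes low, and β-catenin, which accumulates when WNT signalling is active, relieves this repression. In mouse ESCs TCF7L1 is known for occupying regulatory elements together with the pluripotency factors OCT4, SOX2 and NANOG and for restraining genes of the naive state.

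A peak list gives, for each peak, its position and summit on mm10, the fold of the signal over local background and a −log10 p. The lists were of very unequal length. The naive ESC libraries held 660387, 23347 and 117055 peaks (replicates 1 to 3) and the CEpiLC libraries 1628, 230001 and 74815. The numbers overlapped between the states (mean log10 number 5.09 ± 0.73 against 4.48 ± 1.13, SD, n = 3 each; two-sided exact permutation test, p = 0.6). CEpiLC replicate 1 stood apart, with a median peak width of 52 bp, below the read length of 76 bp, and with 13 peaks over coding exons of Tcf7l1 itself, against 0 to 9 in the other 5 libraries. Read depth is unknown. All lists were therefore shortened to their 1628 peaks of highest −log10 p, the length of the shortest list. A rank below is the place of a peak in this order, with 1 the strongest by −log10 p. In CEpiLC replicate 1 the best ranks held the TCF sequence, described below, least often, so its ranks need not order binding.

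In these strongest peaks the signal over background was higher in naive ESCs. The median deposited fold was 47.6, 36.1 and 85.5 in the naive ESC libraries and 8.25, 13.7 and 11.8 in the CEpiLC libraries. The groups did not overlap, and the means were 56.4 ± 25.8 and 11.3 ± 2.76 (5.01 times; exact permutation test, p = 0.1, the smallest p that 3 against 3 libraries can give). The −log10 p of the last peak kept was 102, 90.2 and 242 in naive ESCs and 5.59, 21.3 and 16.2 in CEpiLCs. The median width of the strongest peaks was 588 to 859 bp in naive ESCs and 52 to 384 bp in CEpiLCs, again without overlap. Because library depth cannot be read from the lists, more binding and a deeper or cleaner library cannot be told apart in these values. In all, 13 such library values were compared by exact permutation tests, and p = 0.1 became 0.144 after adjustment.

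**Figure D1:**
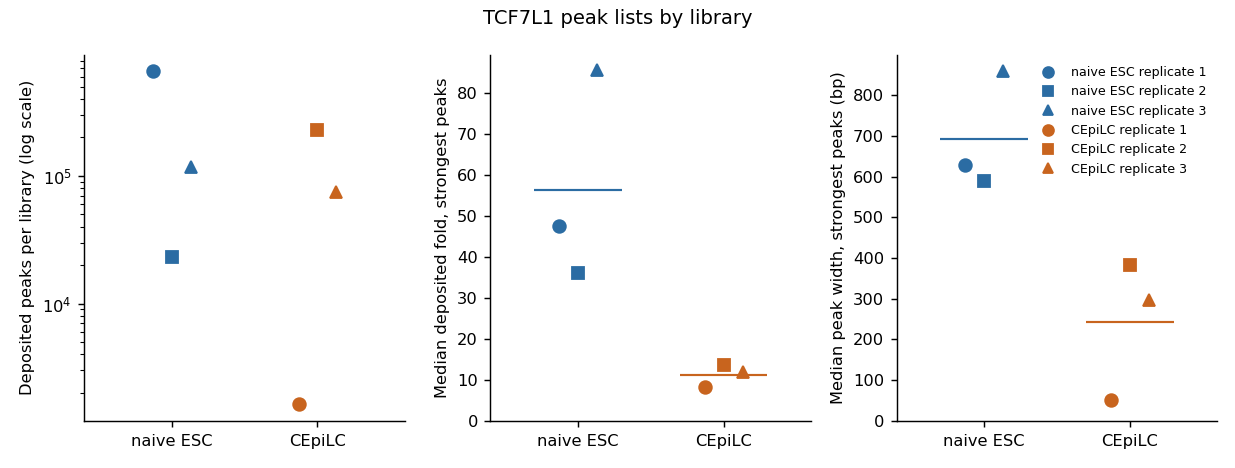
Each point is 1 TCF7L1 library: the number of deposited peaks (left, log scale), the median deposited fold (middle) and the median width in bp (right) of its 1628 strongest peaks, with horizontal lines at the group means. The numbers of peaks overlap between the states, whereas fold (36.1 to 85.5 against 8.25 to 13.7) and width do not.

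Merging overlapping peaks of the 6 equal lists (1 bp or more) gave 4517 sites, which were classed by the libraries that held them. A peak in 3 of 3 naive ESC and 0 of 3 CEpiLC lists was found at 753 sites (16.7%), the reverse at 274 (6.07%), and a peak in all 6 lists at 212 (4.69%). Without CEpiLC replicate 1, at the same list length, 771 sites were in naive ESC lists only and 619 in CEpiLC lists only. These are called naive-only, CEpiLC-only and common sites. Sequences around the summit are shown for 5 of the best-ranked sites, so that the classes can be compared base by base, and for the sites of Klf2, Hoxd1 and T. The latter, and which of the best-ranked sites to print, were chosen after their values were seen. Each run is 201 bases of the mm10 plus strand, 5′ to 3′, centred on the summit of the best-ranked peak and read from the RefSeq genome of GRCm38. Capitals mark the TCF sequence, of 7 bases (CTTTGAA or CTTTGAT, or the reverse complement), and the SOX sequence, of 6 bases (CATTGT or CTTTGT, or the reverse complement). The letters CTTTG are shared by both definitions, and CTTTGTT counts here as a SOX sequence only.

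Of the naive-only sites shown, those named Filip1l and Fancm had no peak in any full CEpiLC list. Filip1l lies at chr16:57473509-57473709 in an intron shared by Cmss1 and Filip1l, Fancm at chr12:65115059-65115259 in an intron of Fancm, and Klf2 at chr8:72316154-72316354, 2779 bp upstream of the start of Klf2. The Klf2 site did have weak peaks in 2 full CEpiLC lists.
Filip1l: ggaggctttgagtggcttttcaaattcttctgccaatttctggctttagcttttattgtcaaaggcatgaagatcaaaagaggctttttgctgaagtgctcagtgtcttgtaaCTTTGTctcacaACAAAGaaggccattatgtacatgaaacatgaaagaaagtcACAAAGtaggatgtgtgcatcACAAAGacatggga
Fancm: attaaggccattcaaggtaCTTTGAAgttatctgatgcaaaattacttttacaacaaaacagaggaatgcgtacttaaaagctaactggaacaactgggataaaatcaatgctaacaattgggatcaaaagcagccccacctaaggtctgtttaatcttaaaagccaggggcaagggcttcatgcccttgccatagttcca
Klf2: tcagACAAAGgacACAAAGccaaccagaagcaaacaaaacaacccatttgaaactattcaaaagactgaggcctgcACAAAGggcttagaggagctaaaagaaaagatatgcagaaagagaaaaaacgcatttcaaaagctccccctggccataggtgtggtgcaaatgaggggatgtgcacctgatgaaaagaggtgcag

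Of the CEpiLC-only sites shown, Hoxd1 lies at chr2:74760232-74760432, 2648 bp upstream of Hoxd1, and T at chr17:8433938-8434138, in the promoter 385 bp upstream of T (Brachyury), and both had weak naive ESC peaks in full lists.
Hoxd1: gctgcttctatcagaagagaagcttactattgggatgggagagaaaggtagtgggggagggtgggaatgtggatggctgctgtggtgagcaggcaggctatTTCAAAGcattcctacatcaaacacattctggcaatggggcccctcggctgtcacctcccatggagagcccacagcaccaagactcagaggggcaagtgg
T: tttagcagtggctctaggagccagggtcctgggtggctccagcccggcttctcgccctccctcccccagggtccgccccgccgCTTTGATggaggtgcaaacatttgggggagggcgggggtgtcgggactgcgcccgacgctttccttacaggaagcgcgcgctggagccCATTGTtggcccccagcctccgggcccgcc

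The best-ranked common sites were Lrmda at chr14:22144082-22144282, in an intron of Lrmda, Foxb1 at chr9:69668784-69668984, 92056 bp from the start of Foxb1 and outside genes, and 2510009E07Rik at chr16:21701976-21702176, 7411 bp from the start of that gene and outside genes.
Lrmda: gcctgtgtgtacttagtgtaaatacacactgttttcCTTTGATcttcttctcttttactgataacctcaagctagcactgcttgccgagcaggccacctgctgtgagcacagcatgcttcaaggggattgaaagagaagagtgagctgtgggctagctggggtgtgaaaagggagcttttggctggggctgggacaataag
Foxb1: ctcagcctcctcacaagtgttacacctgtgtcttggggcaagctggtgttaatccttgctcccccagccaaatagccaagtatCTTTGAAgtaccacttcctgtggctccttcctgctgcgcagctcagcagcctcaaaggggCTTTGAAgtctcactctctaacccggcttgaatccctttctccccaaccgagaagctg
2510009E07Rik: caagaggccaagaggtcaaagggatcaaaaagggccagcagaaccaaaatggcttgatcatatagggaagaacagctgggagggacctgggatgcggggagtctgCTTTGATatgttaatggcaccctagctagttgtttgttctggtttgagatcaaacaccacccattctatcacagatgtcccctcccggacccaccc

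All 3 common sites held a TCF sequence and none a SOX sequence. The Hoxd1 run has its TCF sequence at the summit, 1 base away, and T holds one of each. Filip1l and Klf2 show 4 and 3 SOX sequences and no TCF sequence by these definitions. A SOX sequence of Filip1l lies within AACAAAG, the reverse complement of CTTTGTT. Of the other best-ranked sites the naive-only site near Thap8 and the CEpiLC-only site near Rpl10-ps3 held neither, so these runs are examples, and the shares over all sites are given with the sequence counts.

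The strongest naive-only site, near Filip1l, ranked 1, 1 and 3 in the naive ESC libraries with folds of 215, 197 and 367. The site in Fancm ranked 19, 5 and 6 (folds 177, 178 and 354). The site at chr7:30265505-30266636, in an intron of Wdr62 and 13929 bp from the start of Thap8, ranked 48, 32 and 25. These 3 sites were among the 61 strongest of every naive ESC library, as were the sites at chr18:67340666-67342095 near Cidea and at chr17:14301099-14302920 in an intron of Smoc2. None of the 5 had a peak in any full CEpiLC list, which is the condition by which they were chosen. All 5 were held by 3 of 3 β-catenin and 3 of 3 SOX2 libraries of naive ESCs, as were 99.7% (β-catenin) and 71.2% (SOX2) of all naive-only sites.

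CEpiLC-only sites without any naive ESC peak were fewer and weaker. Only 17 of the 274 were absent from the full naive ESC lists, against 330 of the 753 naive-only sites absent from the full CEpiLC lists. Among the best-ranked of the 17 was chr9:50191178-50191559, 153571 bp from Rpl10-ps3, which ranked 905, 468 and 108 in the CEpiLC libraries with folds of 7.72, 18.8 and 34.4. Others were the sites at chr1:13037103-13037571, 44781 bp from Slco5a1 (ranks 1053, 387 and 435), and at chr3:158885726-158886012, 323661 bp from Lrrc7 (ranks 1056, 817 and 320). All 3 were held by 3 of 3 β-catenin and 3 of 3 LEF1 libraries of CEpiLCs, as were 97.8% (β-catenin) and 96.0% (LEF1) of all CEpiLC-only sites. The full lists differed in extent: the naive ESC lists covered 118, 7.24 and 29.8 Mb, against 0.173 Mb for CEpiLC replicate 1 and 40.3 and 11.7 Mb for CEpiLC replicates 2 and 3.

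The common sites named here were chosen by their worst rank over the 6 libraries. Their high ranks in both states follow from that choice. The Lrmda site ranked 10, 11 and 21 in naive ESCs and 96, 1 and 2 in CEpiLCs, with folds of 183, 137 and 271 against 27.8, 137 and 120. The Foxb1 site ranked 20, 22 and 71 against 101, 3 and 3, and the 2510009E07Rik site 11, 8 and 4 against 113, 2 and 7. The sites at chr8:26832974-26834140, 143748 bp from Zfp703, and at chr2:34569900-34571404 in an intron of Mapkap1 completed the 5 best. At every one of these 5 sites β-catenin, SOX2 and TCF7L2 peaks were found in 3 of 3 libraries of both states. Over all 212 common sites, 3 of 3 naive ESC libraries held 99.1% (β-catenin), 61.3% (SOX2) and 37.3% (TCF7L2). In CEpiLCs these shares were 100%, 89.2% and 65.1%.

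Replicates of a state shared a larger part of the base pairs of their peaks than libraries of different states. The Jaccard index, the base pairs shared by 2 lists over the base pairs in either, was 0.546, 0.480 and 0.537 between naive ESC libraries. Between CEpiLC libraries it was 0.366 for replicates 2 and 3 and 0.155 and 0.173 for the pairs with replicate 1. Pairs across states reached 0.0389 to 0.135. The mean within states was 0.376 and between states 0.0899, a difference of 0.286 (one-sided exact permutation test over 20 assignments, p = 0.1, the smallest possible). By this index CEpiLC replicates 2 and 3 were closer to each other than to any naive ESC library, and replicate 1 was closer to its own state by a smaller margin. The index is limited where peak widths differ, as they did here, and the part of width was not tested. Of the CEpiLC replicate 1 peaks, 60.2%, 44.8% and 56.1% overlapped the full lists of naive ESC replicates 1, 2 and 3. For the full lists of CEpiLC replicates 2 and 3 the shares were 57.7% and 60.3%. By this overlap, on lists of unequal length, replicate 1 was not clearly nearer to its own state.

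**Figure D2:**
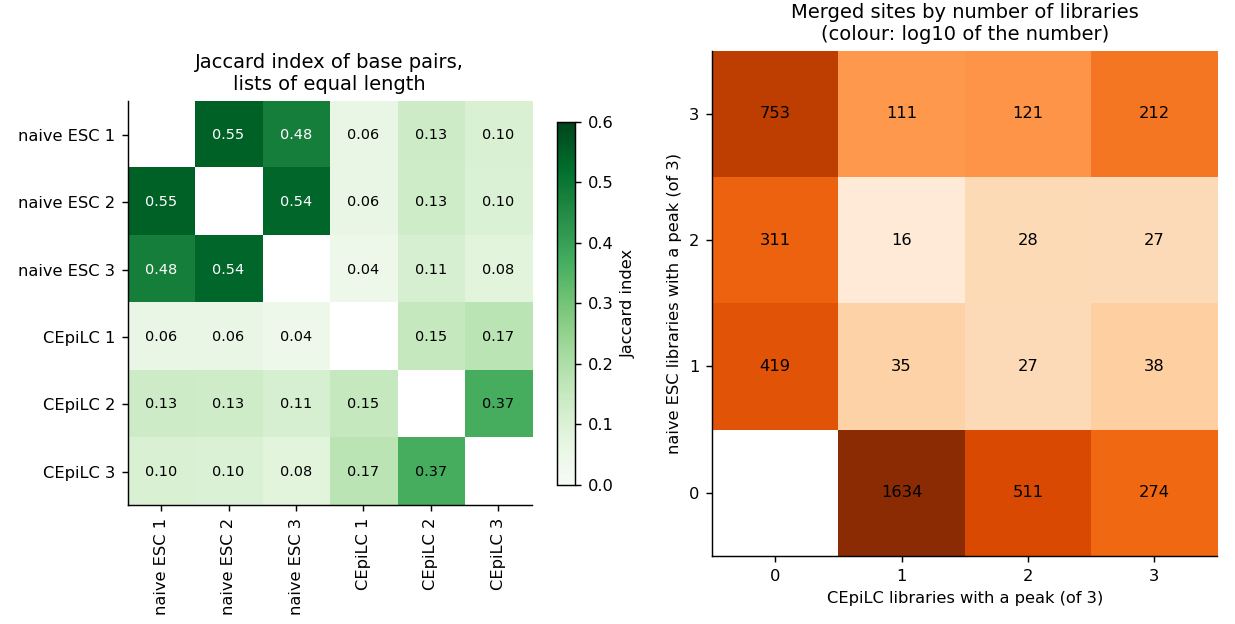
Left, Jaccard index of base pairs for each pair of TCF7L1 libraries on lists of equal length. Right, merged sites by the number of naive ESC and of CEpiLC libraries with a peak. The 753 naive-only, 274 CEpiLC-only and 212 common sites are the corners, and 1634 sites were held by a single CEpiLC library only.

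In the full lists most CEpiLC-only sites also had a peak in naive ESCs. Of the CEpiLC-only sites, 90.1%, 71.5% and 90.1% had a peak in the full lists of naive ESC replicates 1, 2 and 3. Of all 4517 merged sites, which include those called in these libraries, 78.1%, 66.3% and 75.8% had one. The median folds of CEpiLC-only sites there were 13.8, 9.58 and 18.1, where naive-only sites had 51.0, 40.3 and 92.9. Conversely, 48.5% and 25.6% of the naive-only sites had a peak in the full lists of CEpiLC replicates 2 and 3, against 63.7% and 56.7% of all merged sites. The median folds of naive-only sites there were 5.56 and 5.23, where CEpiLC-only sites had 18.7 and 18.2. Naive-only and CEpiLC-only therefore mark positions among the strongest of one state and not of the other, and only partly positions without a peak.

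Fold was also compared at the 648 sites with a peak in all 6 full lists, on log2 of the deposited fold after the median of each library was subtracted. A site must have a peak in the short list of CEpiLC replicate 1 to be tested, and differences are relative to the median site. By limma with Benjamini-Hochberg adjustment, 159 sites (24.5%) were higher in naive ESCs and 175 (27.0%) in CEpiLCs. With quantile normalization they numbered 137 and 121, so the balance of the directions depended on the scaling. The SD of log2 fold over the sites was 1.22 to 1.33 in naive ESC and 0.62 to 0.99 in CEpiLC libraries, which subtraction of the median does not adjust. Of the 159, 94 were common and 0 CEpiLC-only sites, and of the 175, 6 and 137 were. The 648 tested sites held 212 and 193 of these classes. No naive-only site could be tested, and the CEpiLC-only sites were classed by rank in these same libraries. The calls at CEpiLC-only sites therefore largely restate that choice and are no separate support for it. The lowest p in the naive ESC direction was at chr10:17622525-17623335, 100224 bp from Cited2, where folds were 136, 95.0 and 202 in naive ESCs and 6.18, 12.4 and 13.7 in CEpiLCs (log2 difference, CEpiLC minus naive ESC, −2.35 ± 0.26 SE, limma adjusted p = 0.000331). It was followed by chr5:103723914-103725676 in an intron of Aff1 (−2.53 ± 0.29) and chr11:88201648-88202672, 2212 bp from Mrps23 (−2.91 ± 0.34). All 3 ranked 148 or better in every naive ESC library.

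In the CEpiLC direction the lowest p was at chr6:108869254-108869872, outside genes and 40884 bp from Edem1, with folds of 4.44, 3.10 and 9.01 in naive ESCs and 8.67, 21.4 and 18.4 in CEpiLCs (log2 difference 3.00 ± 0.26 SE, limma adjusted p = 0.000176). The second was in the promoter of Wnt6, which encodes a secreted WNT ligand, at chr1:74770791-74771145, 924 bp from its start. Here the folds were 9.37, 4.25 and 6.65 against 11.9, 31.6 and 27.6 (3.17 ± 0.32). The third was at chr18:35862239-35862851, 32836 bp from Cxxc5 (2.64 ± 0.28). All of these were CEpiLC-only sites, classed by rank in these same libraries, so their limma values are no separate support. Promoter positions made up 5.03% of the sites higher in naive ESCs, 6.29% of those higher in CEpiLCs and 7.72% of all 648.

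Where the peaks lay in the genome differed modestly. Promoters, taken as summits within 1000 bp of the start of a protein-coding transcript, held 4.36%, 3.50% and 3.81% of the strongest peaks in naive ESCs and 5.71%, 7.56% and 8.78% in CEpiLCs. All 3 CEpiLC libraries were above all naive ESC libraries (7.35% ± 1.55 against 3.89% ± 0.44; exact permutation test, p = 0.1). Introns held 43.1% ± 0.58 in naive ESCs and 34.9% ± 4.34 in CEpiLCs, and positions outside genes 51.3% ± 1.09 and 55.8% ± 3.29, both without overlap (exact permutation tests, p = 0.1 each). The median distance of a summit to the nearest start of a protein-coding transcript was 25122 ± 691 bp and 30367 ± 707 bp. In both states more than 9 in 10 of the strongest peaks were thus away from promoters.

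The TCF sequence, the core of the site that TCF/LEF proteins bind, was searched within 100 bp of each summit on both strands. It was present at 59.3%, 57.6% and 59.1% of the strongest naive ESC peaks and at 38.6%, 62.8% and 62.6% of the strongest CEpiLC peaks, against 7.80% to 8.97% of windows of the same length 5000 bp away. The low value was that of CEpiLC replicate 1. In that library the share rose from 31.25% at ranks 401 to 800 to 58.5% at ranks 1201 to 1600, and was lowest at ranks 1 to 400. In each of the other libraries it fell from the best to the last of these ranks. The cause was not tested, and the site classes rest on this library too. With all libraries the difference was −3.97 percentage points (CEpiLC minus naive ESC; exact permutation test, p = 1), and without CEpiLC replicate 1 it was 4.05. Matches gathered at the summit in every library. At naive-only, CEpiLC-only and common sites that held one, the median distance of the nearest match from the summit was 21, 23 and 23 bp.

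The SOX sequence, the letters that SOX2 and related proteins recognise, had the largest difference in percentage points between the states of the 8 sequences searched, whereas as a ratio the sequence of the receptor ESRRB differed more (2.15 against 1.69 times). It was present at 52.2%, 53.9% and 51.9% of the naive ESC peaks and at 29.7%, 33.2% and 30.5% of the CEpiLC peaks. Windows 5000 bp away held it at 25.4% to 26.9%. The groups did not overlap (52.7% ± 1.09 against 31.1% ± 1.87, n = 3 each; exact permutation test, p = 0.1, adjusted over the 8 sequences 0.16). CEpiLC libraries were thus slightly above their surrounding windows, and every naive ESC library held the sequence about as often again as its windows did.

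**Figure D3:**
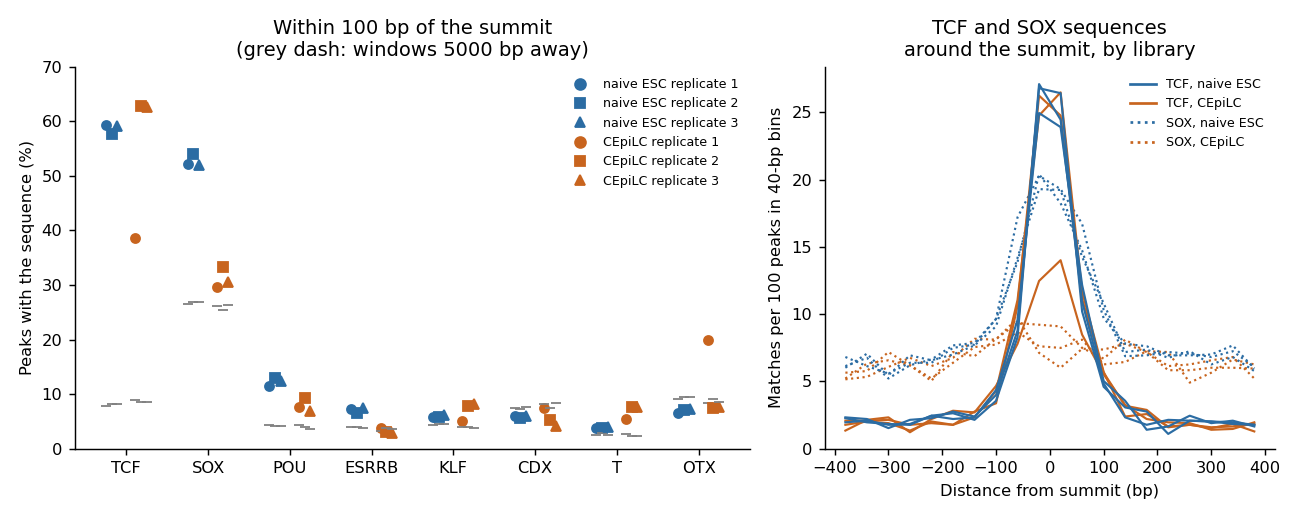
Left, share of the 1628 strongest peaks of each library with each of 8 short sequences within 100 bp of the summit, with grey dashes for windows of the same length 5000 bp away. Right, matches to the TCF (solid) and SOX (dotted) sequences per 100 peaks in bins of 40 bp against the distance from the summit, with 1 line per library. The TCF lines peak at the summit in both states and the line of CEpiLC replicate 1 is lowest, and the SOX lines peak clearly in naive ESCs only (52.7% against 31.1% of peaks).

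Sequences of other factors were less frequent. The POU sequence ATGCAAA, bound by OCT4, was present at 12.3% ± 0.78 of naive ESC and 7.92% ± 1.23 of CEpiLC peaks, and AAGGTCA, bound by the naive-state receptor ESRRB, at 7.13% ± 0.55 and 3.32% ± 0.49. GGTGTGA, the core letters for T, was present at 3.87% ± 0.061 of naive ESC and 6.90% ± 1.24 of CEpiLC peaks. None of these 3 overlapped between the states (exact permutation test, p = 0.1, adjusted 0.16 for each). GGATTA, bound by OTX proteins, was at 19.9% in CEpiLC replicate 1 and at 6.51% to 7.68% in the other 5 libraries. The KLF sequence GGGTGTG, which shares letters with that of T, and the CDX sequences TTTATTG and TTTATGG did not separate the groups (exact permutation tests, p = 0.4 and p = 0.9).

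The site classes showed the same contrast as counts of sites. A SOX sequence was present at 430 of the 753 naive-only sites (57.1%), at 91 of the 212 common sites (42.9%) and at 74 of the 274 CEpiLC-only sites (27.0%), against 26.6%, 25.0% and 26.8% of the windows 5000 bp away. A TCF sequence was present at 56.2%, 72.2% and 68.6% of these sites. Sites with a TCF and no SOX sequence made up 26.8% of the naive-only and 52.6% of the CEpiLC-only sites, and sites with a SOX and no TCF sequence 27.8% and 10.9%. How far this split depends on counting CTTTGTT as SOX only was not tested. The T sequence was present at 25 naive-only sites (3.32%) and 28 CEpiLC-only sites (10.2%), and the ESRRB sequence at 8.23% and 2.19%. These shares are over sites of the same libraries and carry no test of their own. Base composition moved with the classes: the median GC content was 45.3% at naive-only, 50.2% at CEpiLC-only and 49.8% at common sites, and its part in the counts was not tested. Without CEpiLC replicate 1, on lists of 23347 peaks, 12.2% of the sites were naive-only, 0.966% CEpiLC-only and 1.87% in all 5 lists. The SOX sequence was then present at 53.3% of 9381 naive-only sites and at 24.4% of 741 CEpiLC-only sites, the ESRRB sequence at 10.6% and 3.10%, and the T sequence at 3.29% and 10.4%.

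The genes near the peaks were read from lists of developmental regulators, each gene taken as its body with 10 kb upstream. Over all 21951 protein-coding genes, 409 loci (1.86%) had a peak in 3 of 3 naive ESC and 0 of 3 CEpiLC equal lists, 130 (0.592%) had the reverse, and 161 (0.733%) had a peak in all 6. Of the 167 genes of the lists, 8 were naive-only and 13 CEpiLC-only loci.

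Genes of the naive pluripotent state had the largest share of naive-only loci. Of 18, 7 were naive-only (38.9%, against 1.86% of all genes), none was CEpiLC-only and 9 had no peak in any equal list. Tfcp2l1, a transcription factor that maintains naive ESCs, had its best site at chr1:118625085-118626300, 2280 bp from the nearest transcript start, with ranks of 117, 53 and 49 and folds of 96.8, 107 and 228 in naive ESCs. The same site had no peak in the full lists of CEpiLC replicates 1 and 2 and ranked 60134 (fold 3.80) in replicate 3. Elsewhere in the Tfcp2l1 locus the best peaks of CEpiLC replicates 2 and 3 ranked 13231 and 18510 (folds 6.26 and 5.31). Klf2, a Krüppel-like factor of the naive state, ranked 259, 354 and 184 (folds 75.5, 44.5 and 146), and in CEpiLCs it had no peak, rank 50079 (fold 5.04) and rank 11321 (fold 5.29). Esrrb, an orphan nuclear receptor of the naive state, had its best locus peak at ranks 1019, 1581 and 912 in naive ESCs, and at no peak, 2382 and 8323 in CEpiLCs.

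Other naive-only loci of this list were of metabolic, chromatin and surface genes. In Tdh, which encodes threonine dehydrogenase, the intronic site at chr14:63501363-63502434 ranked 301, 140 and 82 with folds of 79.1, 84.7 and 220 and had no peak in any full CEpiLC list. In Tet2, which encodes an oxidase of 5-methylcytosine, the intronic site at chr3:133524433-133525470 ranked 437, 350 and 215 and had 1 weak CEpiLC peak (replicate 2, fold 5.56). Upstream of Jam2, which encodes a junctional adhesion molecule, the site at chr16:84769079-84769729 ranked 460, 530 and 670 and was absent from all full CEpiLC lists. Elsewhere in the Tdh, Tet2 and Jam2 loci the best peaks ranked 42968, 6592 and 5323 in CEpiLC replicate 2. In CEpiLC replicate 3 they ranked 16252, 7265 and 8708. Upstream of Dppa3 (Stella), the site at chr6:122624245-122625182 ranked 1342, 860 and 816. All 6 best sites of Tfcp2l1, Tdh, Klf2, Tet2, Jam2 and Dppa3 were held by 3 of 3 β-catenin and 3 of 3 SOX2 libraries of naive ESCs. Of all 753 naive-only sites, 99.7% were held by 3 of 3 of these β-catenin libraries and 71.2% by 3 of 3 of these SOX2 libraries.

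Loci with peaks in both states included targets of the WNT pathway. Of 17 genes of WNT feedback and direct targets, 4 had a peak in all 6 equal lists (23.5%, against 0.733% of all genes) and none was in one state only. At Sp5, a zinc-finger target of WNT signalling, the promoter site at chr2:70474297-70476050 ranked 840, 455 and 520 in naive ESCs and 281, 53 and 186 in CEpiLCs. At Axin2, a scaffold of the β-catenin destruction complex and feedback inhibitor, the promoter site at chr11:108920039-108921842 ranked 671, 1102 and 1284 against 1465, 1092 and 1271. At Znrf3, a ligase that removes WNT receptors, the intronic site at chr11:5411468-5412123 ranked 1110, 1595 and 1421 against 833, 213 and 91. Sp5 and Znrf3 ranked better in every CEpiLC library than in any naive ESC library, which held for 22 of the 212 common sites (10.4%), with the reverse at 37 (17.5%). At Lgr5, a receptor for R-spondins, an intronic site ranked 658, 507 and 796 against 985, 271 and 853.

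Of 5 genes of TCF/LEF proteins and β-catenin, none was in one state only by the same rule, and 1 had a peak in all 6 lists. This was Tcf7l2, with an intronic site at chr19:55792359-55793054, with ranks of 1236, 1274 and 1493 against 1625, 622 and 460. At Tcf7l1 itself the best naive ESC peaks ranked 727, 890 and 864, and the best CEpiLC peaks ranked 57, 2814 and 5927. The rank of 57 belongs to the exon peaks of CEpiLC replicate 1, and whether these reflect genomic binding was not tested.

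Genes of the caudal epiblast and primitive streak were divided. Of 20, 3 were CEpiLC-only (15%, against 0.592% of all genes), 3 had a peak in all 6 lists (15%) and none was naive-only. T, the mesodermal T-box factor Brachyury, had a promoter site that ranked 1421, 619 and 1044 in CEpiLCs with folds of 5.53, 14.9 and 9.85, and 71948, no peak and 29988 in naive ESCs with folds of 5.22 and 5.71. Evx1, a homeobox gene of the streak, had a site 2015 bp upstream that ranked 1207, 239 and 418 in CEpiLCs and 490524, 17024 and 19039 in naive ESCs. Elsewhere in these loci naive ESCs had stronger peaks. They ranked 16580 and 22105 (folds 8.89 and 8.76) at T in replicates 1 and 3, and 11108 (fold 11.4) at Evx1 in replicate 1. Wnt8a, a WNT ligand, had a promoter site that ranked 1313, 590 and 1112 in CEpiLCs and 2405, 4995 and 2884 in naive ESCs, nearer to the limit of 1628 than the other 2 genes. Its folds were 5.90, 16.5 and 10.3 in CEpiLCs and 22.4, 10.4 and 32.4 in naive ESCs, so the call rests on rank and not on fold.

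Cdx1, a caudal-type homeobox gene induced by WNT, was among the strongest loci in both states. Its promoter site ranked 82, 127 and 51 in naive ESCs and 267, 20 and 36 in CEpiLCs, with folds of 103, 70.2 and 193 against 15.3, 51.6 and 46.2. Cdx2 and Cdx4, named after their values were seen, ranked better in naive ESCs. Cdx2, a further caudal-type homeobox gene, had its best locus peak at ranks of 165, 54 and 90 in naive ESCs and 804, 490 and 2310 in CEpiLCs, with folds of 92.7, 108 and 202 against 8.42, 17.5 and 7.36. Cdx4 ranked 1554, 1094 and 1854 in naive ESCs, and had peaks in CEpiLC replicate 2 alone, the best at rank 17835. Gbx2, a homeobox gene, had a site 4888 bp upstream that ranked 418, 500 and 798 against 227, 38 and 39, with every CEpiLC rank better than every naive ESC rank. Wnt5b had a site at a promoter within the gene that ranked 1023, 832 and 469 against 612, 251 and 585.

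Hox genes, which set position along the body axis, had no naive-only locus. Of 39, 5 were CEpiLC-only (12.8%, against 0.592% of all genes), namely Hoxd1, Hoxb3, Hoxb4, Hoxb1 and Hoxb9, and 8 were without CEpiLC replicate 3. The Hoxd1 site ranked 434, 80 and 155 in CEpiLCs with folds of 11.4, 39.3 and 28.7, and 7764, no peak and 15641 in naive ESCs. Hoxb3 and Hoxb4 share their site at chr11:96316304-96316871, 1763 bp upstream of Hoxb4, so they are not independent, and it ranked 614, 175 and 642 in CEpiLCs. The promoter site of Hoxb1 at chr11:96365282-96365761 ranked 947, 272 and 369 in CEpiLCs and 193797, 23183 and 8220 in naive ESCs. Elsewhere in the Hoxb1 locus naive ESC replicate 1 had a peak at rank 97766. At Hoxb9 and at Msx1, the CEpiLC-only gene of 9 of the BMP list, different sites of the locus held the peaks in different libraries.

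Further CEpiLC-only loci came from lists of 12 neural and cofactor genes and 10 FGF and ERK genes. The promoter site of the neural homeobox gene Nkx6-1 ranked 814, 1165 and 670 in CEpiLCs and 9565, no peak and 12634 in naive ESCs. Its folds were 8.25, 9.25 and 12.3 in CEpiLCs and 10.4 and 12.4 in naive ESC replicates 1 and 3. The ETS factors Etv4 and Etv5, both targets of FGF signalling, went opposite ways. Etv4 had an intronic site that ranked 1218, 174 and 885 in CEpiLCs and 3786, 5882 and 3922 in naive ESCs. The folds of this site were 6.22, 23.9 and 10.1 in CEpiLCs and 18.7, 8.25 and 23.0 in naive ESCs. Etv5 had a site over a coding exon that ranked 310, 470 and 549 in naive ESCs and no peak, 12778 and 6597 in CEpiLCs. Elsewhere in the Etv5 locus CEpiLC replicate 2 had a peak at rank 2411. Fgfr1, which encodes an FGF receptor, and Nodal, a TGF-β family ligand, had sites in all 6 lists. Lin28a, the CEpiLC-only gene of 7 core pluripotency genes, ranked 1705 to 2294 in naive ESCs, just past the limit, and its CEpiLC replicate 1 peak lay at another site of the locus than those of replicates 2 and 3. The folds of its best locus peaks were 27.6, 17.0 and 47.6 in naive ESCs and 5.81, 9.09 and 9.11 in CEpiLCs. By the rule of 3 of 3 against 0 of 3 lists, none of the 11 primed epiblast and 10 Notch genes was in one state only. Hes7 of the Notch list ranked 227 and 260, and Fgf5 of the primed list 844 and 790, in CEpiLC replicates 2 and 3. Neither had a peak in CEpiLC replicate 1 or in a naive ESC equal list. No gene of either list had a peak in 3 of 3 naive ESC equal lists. All 18 genes of unrelated tissues lacked a peak in every equal list, as did 89.1% of all genes.

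**Figure D4:**
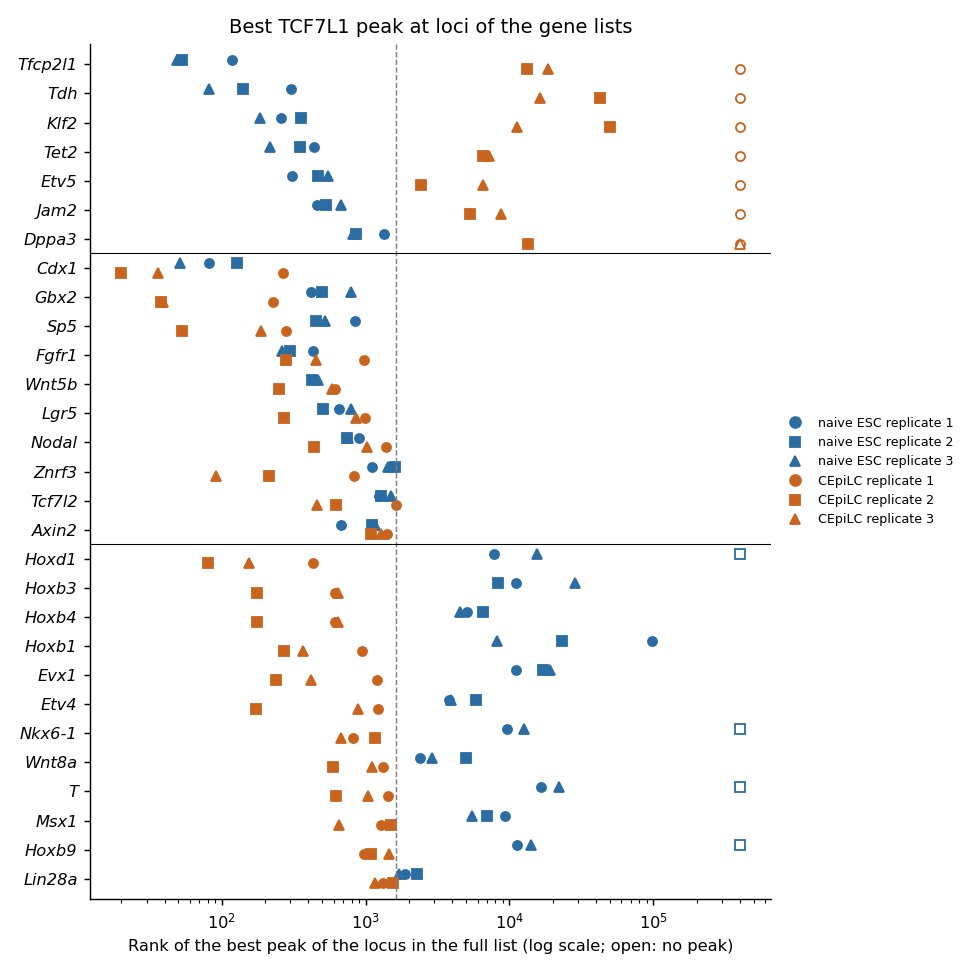
Rank of the best TCF7L1 peak of each named locus in the full list of each library (log scale, 1 is the strongest, open symbols mark no peak), with loci only in naive ESCs at the top, in all 6 lists in the middle and only in CEpiLCs at the bottom. The dashed line is the limit of 1628 peaks. Tfcp2l1 reaches ranks of 49 to 117 in naive ESCs, Cdx1 of 20 to 267 across both states, and Hoxd1 of 80 to 434 in CEpiLCs.

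These calls rest on the short lists. Without CEpiLC replicate 1, on lists of 23347 peaks, 4.94% of all loci were naive-only, 4.76% CEpiLC-only and 12.3% had a peak in all 5 lists. Peaks in all 5 were then found at 10 of 17 WNT genes (58.8%), 10 of 20 caudal epiblast genes (50%), 7 of 10 FGF and ERK genes (70%) and 4 of 5 TCF/LEF and β-catenin genes (80%). Of the 18 naive pluripotency genes, 5 were naive-only at this length, namely Nanog, Fgf4, Zfp42, Tcl1 and Nr0b1, and 4 had a peak in all 5. The 7 naive-only genes of the short lists and these 5 had 0 genes in common, and each of the 7 loci had a peak in a full CEpiLC list. Of the 39 Hox genes, 4 were CEpiLC-only (10.3%) and 2 naive-only (5.13%). The 5 CEpiLC-only Hox genes of the short lists and these 4 had 0 genes in common. Of the 18 genes of unrelated tissues, 2 were CEpiLC-only (11.1%) and 1 naive-only (5.56%) at this length.

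The libraries of 4 other proteins, which had no part in choosing the sites, were compared at the TCF7L1 site classes. Within each protein, lists were again cut to equal length (10930 peaks for β-catenin, 20000 for SOX2, 4627 for TCF7L2 and 4443 for LEF1). β-catenin, the partner that TCF proteins recruit, had a peak at 753, 751 and 753 of the 753 naive-only sites in naive ESCs and at 261, 228 and 167 in CEpiLCs. At the 274 CEpiLC-only sites it had a peak at 176, 106 and 154 in naive ESCs and at 274, 269 and 271 in CEpiLCs. At the 212 common sites it had a peak at 210 to 212 in all 6 libraries. Of these 3 classes, β-catenin peaks were thus at nearly every site that TCF7L1 held in the same state, and at a minority of the naive-only sites in CEpiLCs.

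SOX2 had a peak at 74.2%, 94.3% and 89.8% of the naive-only sites in naive ESCs and at 40.6%, 37.6% and 30.1% in CEpiLCs. At the CEpiLC-only sites the order was turned, with 16.8%, 24.8% and 20.4% in naive ESCs and 91.2%, 78.8% and 92.0% in CEpiLCs. At common sites SOX2 was present in both states, at 66.5% to 84.4% and 92.9% to 97.2%. SOX2 peaks at CEpiLC-only sites were also found without the SOX sequence: 142 of the 200 CEpiLC-only sites without it (71.0%) had a SOX2 peak in 3 of 3 CEpiLC libraries, as had 59 of the 74 with it (79.7%). At naive-only sites the corresponding values in naive ESCs were 198 of 323 (61.3%) and 338 of 430 (78.6%).

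LEF1 and TCF7L2 are the other TCF/LEF proteins measured. LEF1 had a peak at 97.8%, 97.8% and 98.9% of the CEpiLC-only sites in CEpiLCs, and TCF7L2 at 85.0%, 68.2% and 76.6%. At naive-only sites their naive ESC libraries were scattered, with 1.59%, 83.9% and 27.8% for LEF1 and 21.1%, 72.8% and 39.3% for TCF7L2, against 9.30% to 14.2% and 1.33% to 2.79% in CEpiLCs. LEF1 of naive ESC replicate 1 overlapped few sites of any class (12 naive-only, 15 CEpiLC-only and 18 common sites).

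The contrast was summarised per library as a class index, the log2 odds of overlapping a naive-only site minus the log2 odds of overlapping a CEpiLC-only site, with 0.5 added to each count. It was 9.60 ± 0.66 in naive ESCs and −8.31 ± 1.61 in CEpiLCs for β-catenin (SD, n = 3 each) and 4.84 ± 0.92 and −3.74 ± 1.05 for SOX2. It was 1.16 ± 2.76 and −8.51 ± 0.91 for LEF1 and 2.67 ± 1.72 and −7.21 ± 0.89 for TCF7L2. The groups did not overlap for any of the 4 proteins (exact permutation test, p = 0.1 for each and after adjustment over 4). The lowest naive ESC value was that of LEF1 replicate 1 (−1.83), still above the highest CEpiLC value of that protein (−7.96).

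**Figure D5:**
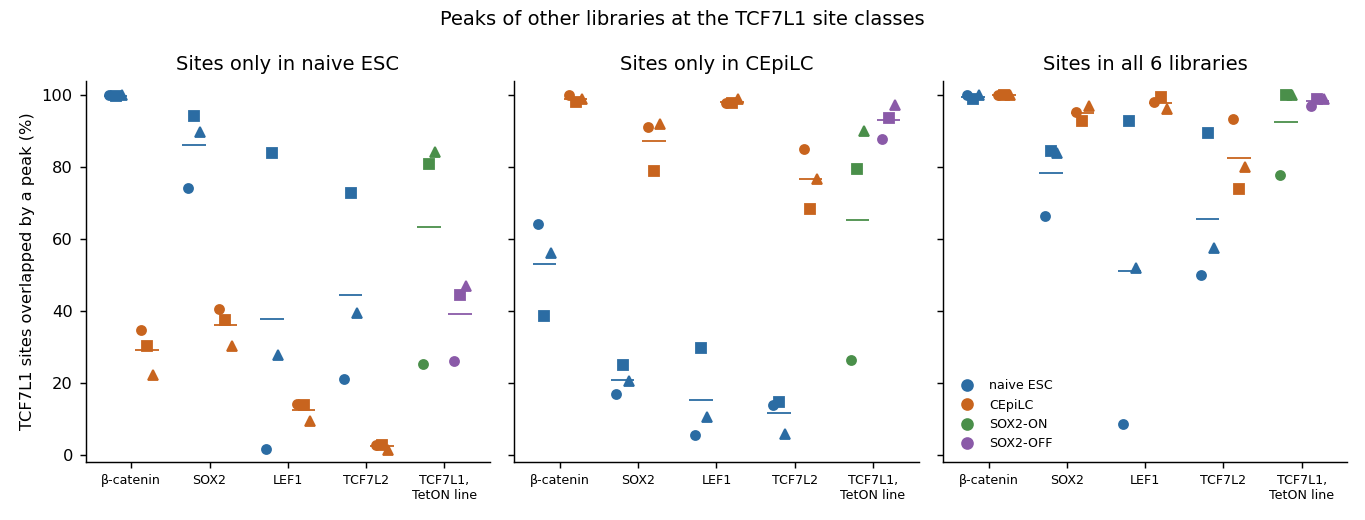
Share of naive-only (left), CEpiLC-only (middle) and common (right) TCF7L1 sites overlapped by a peak of each library of β-catenin, SOX2, LEF1 and TCF7L2 in naive ESCs and CEpiLCs, and of TCF7L1 in SOX2-ON and SOX2-OFF cells, on lists of equal length within a protein, with lines at the group means. β-catenin overlaps nearly all naive-only sites in naive ESCs and 22.2% to 34.7% in CEpiLCs, and SOX2-ON replicate 1 lies below the other SOX2-ON libraries in all 3 classes.

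TCF7L1 had also been mapped in the SOX2-TetON line, where both groups were differentiated like CEpiLCs and differ in doxycycline. With lists of 16482 peaks, SOX2-ON libraries had a peak at 190, 609 and 634 of the naive-only sites (25.2%, 80.9% and 84.2%) and SOX2-OFF libraries at 197, 335 and 353 (26.2%, 44.5% and 46.9%). At CEpiLC-only sites the values were 26.3%, 79.6% and 90.1% in SOX2-ON and 88.0%, 93.8% and 97.4% in SOX2-OFF. SOX2-ON replicate 1 was low at all classes, including 77.8% of the common sites where the other 5 libraries reached 97.2% to 100%. The class index was −0.08, 0.13 and −0.76 in SOX2-ON and −4.34, −4.20 and −5.34 in SOX2-OFF, without overlap (mean difference, SOX2-OFF minus SOX2-ON, −4.39; exact permutation test, p = 0.1). TCF7L1 peaks of SOX2-ON cells thus covered the naive-only and CEpiLC-only classes about equally, and those of SOX2-OFF cells covered a larger share of the CEpiLC-only class.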

How the data were processed

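Per the labels and the methods of the study, the authors trimmed the reads with Trim Galore, aligned them to mm10 with BWA and called narrow peaks with MACS2 for each library separately, without pooling replicates, at the default q-value of 0.05. The input paired with each library is not given in the sources used here. The deposited lists hold per peak a score (10 times the −log10 q-value), the fold over local background as a ratio, −log10 p-value, −log10 q-value and summit. The 6 lists hold 1107233 peaks, 0 of them past the end of a GRCm38 chromosome and 21 on the mitochondrial chromosome. Read counts are not part of the lists, so depth is unknown and no counting interval is given.

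Peaks were ranked by −log10 p, cut to 1628 per library and merged. Python 3.11.15 with numpy 2.4.6 and pandas 2.3.3, and limma 3.58.1 in R 4.3.3, were used on GRCm38 and the basic GENCODE vM21 annotation. Groups were compared by two-sided exact permutation tests, or one-sided for the Jaccard index. The 13 gene lists, the 8 sequences and the members were chosen with earlier results of these data known. Genes were named by a rule: from each list up to 6 per direction and 4 with a peak in all 6 lists, by mean rank, and 5 sites per class by their worst rank, and 3 sites per direction by limma p. Esrrb, Tcf7l1, Cdx2, Cdx4, Hes7 and Fgf5 were added after their values were seen. Alternatives were other list lengths, ranking by fold, other overlap rules and windows, leaving out each library, peaks over coding exons of 4 genes removed, and the replicate number as a block. List handling, sequence search and limma were tested on simulated data. The 24 peak lists of other proteins in the SOX2-TetON line were not used. A few items that the rule named are not reported here.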

Additional observations from a re-analysis of the deposited data

How the results depend on the processing

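The states kept the same direction for the Jaccard difference, promoter share, SOX, POU, ESRRB, T and OTX sequences and all class indices under every alternative run, but not the same size. With all deposited peaks the promoter difference was 0.223 percentage points (exact permutation test, p = 0.9), SOX −10.7 (p = 0.2), POU −1.37 (p = 0.5), T 0.769 (p = 0.6) and the Jaccard difference 0.0413, and the groups overlapped for these 4 shares; the cause was not tested. The counts of sites depended on list length. With 500, 1000, at most 5000 and all peaks per library, naive-only sites numbered 250, 476, 2370 and 12447 and common sites 43, 113, 382 and 650, and CEpiLC-only sites numbered 35, 128 and 39 with 500, 1000 and all peaks. Without CEpiLC replicate 1, on lists of 23347 peaks, they were 9381, 1437 and 741. Sites absent from the full lists of the other state numbered 330 (naive-only) and 17 (CEpiLC-only). With 2 of 3 libraries in place of 3, CEpiLC-only sites numbered 785, and with at least 50% of the site covered by the peak, 35 were CEpiLC-only and 5 common. The CDX difference turned to 0.333, 0.533, 0.705 and 0.568 percentage points with these 4 list lengths and to 0.123 within 250 bp, and the KLF difference to −0.787 (at most 5000), −1.06 (all peaks) and −0.696 (250 bp); the cause was not tested. Within 50000 bp of the gene start, 22 list genes were CEpiLC-only. Among loci absent from the full lists of the other state, 0 list genes were naive-only and 0 CEpiLC-only. Leaving out each library in turn gave −1.04 to 0.0324 for the log10 number of peaks, −8.05 to 4.05 for TCF, −1.09 to 0.573 for CDX, 280 to 619 CEpiLC-only sites, 13 to 20 CEpiLC-only list genes, and 114 to 418 and 130 to 496 limma sites. The extremes 0.0324, 4.05, 619, 20, 418 and 496 are all without CEpiLC replicate 1, when 1552 sites could be tested by limma. The OTX difference was 0.604 without it. Same-numbered libraries showed little shared deviation in fold at the limma sites (r of 0.0626, 0.0875 and 0.00345). As the deviations were taken from means of 3 libraries, these values cannot decide whether the numbers pair them. With the replicate block, limma called 152 and 172 sites, and exact sign flips could not go below p = 0.25 (0.75 for the number of peaks, 0.25 for the promoter share and all class indices). Leaving aside the counts of single gene lists, 268 of the values under alternatives kept direction and side of the threshold, or stayed within 1.5 times for counts, 26 moved further and 12 turned direction, but with 3 libraries per state no permutation test could pass it. Of the counts of single gene lists, 180 stayed within 1.5 times and 28 moved further.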
